A study of Mus musculus with 2 samples.

Results

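Cyclic nucleotide phosphodiesterases were followed across the cell types of young visceral fat. The 10 genes Pde3b, Pde3a, Pde4a, Pde4b, Pde4d, Pde7b, Pde8a, Pde8b, Pde10a and Pde1a were chosen by symbol, and all 10 of them were found among the 56980 genes of the count tables of both libraries. The tissue was visceral (gonadal) white adipose tissue of female C57BL/6J mice aged 2 months, and VAT young replicate 1 and replicate 2 are 1 library each from 1 mouse each, with no treatment. Any further libraries of the study are not used here, and ages and depots are not compared. Nuclei were isolated from the whole tissue and captured on the Singleron GEXSCOPE system according to the methods, whereas the sample labels name 10x Genomics and adipocytes. The nuclei held markers of 6 cell types, so the label of adipocytes alone did not describe them.

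Phosphodiesterases hydrolyse the second messengers cAMP and cGMP and so end the signals that these carry. In fat cells cAMP, made by adenylyl cyclases after adrenergic stimulation, activates protein kinase A and with it the release of fatty acids from stored fat, and insulin opposes this in part by activating the enzyme encoded by Pde3b. The Pde4, Pde7 and Pde8 families are specific for cAMP, the Pde3 family cleaves cAMP and is inhibited by cGMP, and the Pde1 and Pde10 families cleave both nucleotides.

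Of the 24492 called nuclei, 15058 had over 500 genes, over 1000 unique molecular identifiers (UMIs, counted RNA molecules) and under 15% mitochondrial UMIs. Replicate 1 kept 2833 nuclei with 8466237 UMIs in all, and replicate 2 kept 12225 nuclei with 48068273 UMIs, so that values of replicate 1 rest on fewer molecules. The median mitochondrial share was 6.20% in replicate 1 and 0.621% in replicate 2, and 27 of the kept barcodes occurred in both libraries. Clusters were drawn without the phosphodiesterases and their pathway genes and were named from markers as adipocyte-like (1970 and 6887 nuclei in replicates 1 and 2), FAP-like, that is like fibro-adipogenic progenitors (253 and 1315), mesothelial-like (246 and 2180), endothelial-like (83 and 536), smooth muscle-like (24 and 165) and immune-like (257 and 1142). Endothelial-like nuclei include a cluster of 34 with lymphatic endothelial markers, and immune-like nuclei join 2 clusters with macrophage markers, of 913 and 66 nuclei, to another of 420. These types are called by the bare names below. The summed level of the 10 adipocyte markers was 13078 and 12492 CPM (counts per 1000000 UMIs) in adipocytes and 2872 to 6285 CPM in the other types, and none of these 10 markers was at 0 in any type.

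Values are CPM of the UMIs summed over the nuclei of a type, in replicates 1 and 2 in that order. Nuclear RNA is rich in introns, and long genes can collect background UMIs, the source of which was not tested. A background rate was therefore read from 50 neural genes of 129 to 2245 kb, and a level is also given as a multiple of that rate times the length of the gene. The median rate of the neural genes was 0.0312 and 0.0428 CPM per kb in adipocytes and reached 0.0716 and 0.0999 CPM per kb in mesothelial nuclei. Of the 60 pairs of a phosphodiesterase and a cell type, 45 were over 2 times this background in both libraries, and 28 when exon length took the place of gene length. Pde3b, Pde8a and Pde4a are shorter than the shortest neural gene, so that their background is extrapolated. Pde3b, Pde4a, Pde4d, Pde8a and Pde1a were over it in all 6 types, Pde7b in 5, Pde3a and Pde10a in 4, and Pde4b and Pde8b in 1 each.

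Of the starts that RefSeq lists for these genes, 3 are printed here because their genes stood highest in 1 cell type, Pde4d and Pde7b in adipocytes and Pde8a in FAPs. The table of RefSeq starts used here held those of 8 of the 10 genes and had no entry for Pde3b and Pde3a, which says nothing of RefSeq as a whole. Each run covers 250 bases before the start and 50 after it, is credited to RefSeq on GRCm38.p6, and was found once in GRCm39, at chr13:108790461-108790760 on the plus strand for Pde4d, chr10:20424025-20424324 on the minus strand for Pde7b and chr7:80862763-80863062 on the plus strand for Pde8a. Capitals mark TGACG, the core of the cAMP response element, and GGGCGG, the GC box, each searched on both strands together with TATAAA.
Pde4d: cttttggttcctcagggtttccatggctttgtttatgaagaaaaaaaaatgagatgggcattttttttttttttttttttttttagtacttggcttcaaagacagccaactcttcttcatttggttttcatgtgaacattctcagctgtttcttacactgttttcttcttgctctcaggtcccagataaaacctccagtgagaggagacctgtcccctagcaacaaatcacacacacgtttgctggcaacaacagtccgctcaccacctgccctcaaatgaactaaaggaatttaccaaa
Pde7b: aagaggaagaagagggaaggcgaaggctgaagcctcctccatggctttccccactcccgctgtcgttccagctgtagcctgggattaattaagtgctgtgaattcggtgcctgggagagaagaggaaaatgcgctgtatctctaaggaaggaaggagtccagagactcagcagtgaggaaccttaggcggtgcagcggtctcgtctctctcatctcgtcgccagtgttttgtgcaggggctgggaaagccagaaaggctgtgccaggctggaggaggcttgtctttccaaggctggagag
Pde8a: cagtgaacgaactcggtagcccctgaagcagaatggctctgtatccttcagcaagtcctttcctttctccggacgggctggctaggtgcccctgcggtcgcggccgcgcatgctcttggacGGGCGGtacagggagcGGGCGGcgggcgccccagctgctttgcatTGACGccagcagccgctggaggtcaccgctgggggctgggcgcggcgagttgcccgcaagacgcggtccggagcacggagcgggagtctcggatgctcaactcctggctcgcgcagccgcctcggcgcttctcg
The Pde8a window held TGACG once, 84 bases before the start, and GGGCGG at 2 places, and none of these letters occurred in the windows of Pde4d and Pde7b. The whole cAMP response element TGACGTCA was in none of the 21 windows of the 8 genes and in 1.79% of all 32851 windows of the table. TGACG, which the whole element contains, was in 5 of the 21 windows and in 20.8% of all, GGGCGG in 7 of them and in 35.7% of all, and TATAAA in 2 of them, both of Pde1a, and in 13.6% of all. GC content was 39.7% in the Pde4d window, 55.7% in that of Pde7b and 68.7% in that of Pde8a, beside a median of 52.7% over the table. The Pde8a start lay 72 bases inside the annotated 5′ end of the gene, while those of Pde4d and Pde7b lay 204229 and 176812 bases inside it, so the other starts of these long genes are not covered by the windows.

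Between the cell types, a type was set against the average of the remaining 5 in edgeR's quasi-likelihood test of the summed counts, over 14209 genes. The average was taken of log2 levels, so that a type of very low level raises the values of the others. A call needed an adjusted p under 0.05 and a difference of 1 or more on the log2 scale. With 1 library per mouse, n = 2 and the library as a block, the p-values measure how far the differences between types varied between the 2 libraries. Of the 60 pairs, 10 were called higher and 8 lower, beside 7.77% and 5.61% of all genes over the 6 types, and 8 of the 10 genes were called higher in at least 1 type, beside 38.5% of all genes. In adipocytes Pde3b, Pde4d and Pde7b were higher, 3 of 10, where 9.10% of all tested genes were called higher. In FAPs Pde3a, Pde8a and Pde10a were higher, 3 of 10 beside 7.18% of all genes. In smooth muscle nuclei Pde3a, Pde8b and Pde1a were higher, 3 of 10 beside 4.43% of all genes. In mesothelial nuclei Pde10a alone of the 10 was called higher, beside 9.06% of all genes, while Pde3a, at 0.94 (adjusted p = 3.6e-05 from edgeR), was just under the limit and was called in 4 of 12 alternatives, at up to 1.59. None of the 10 was called higher in endothelial nuclei, where 6.22% of all genes were, or in immune nuclei, where 10.6% were, although Pde4b passed the p-value limit in both (adjusted p = 0.04 and 0.012 from edgeR), with log2 differences of 0.73 and 0.70, under the limit of 1. At an unadjusted p under 0.05 no other of the 10 was higher in these 2 types, and DESeq2 called none of them higher there. Pde4b was called higher in endothelial nuclei in 2 of 12 alternatives, at up to 1.46. These were a mitochondrial limit of 5%, under which smooth muscle was not tested, and a setting added after seeing the data. That setting left out mixed subclusters outside smooth muscle, those with markers of another type, and also an adipocyte subcluster of satellite repeats.

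**Figure D1:**
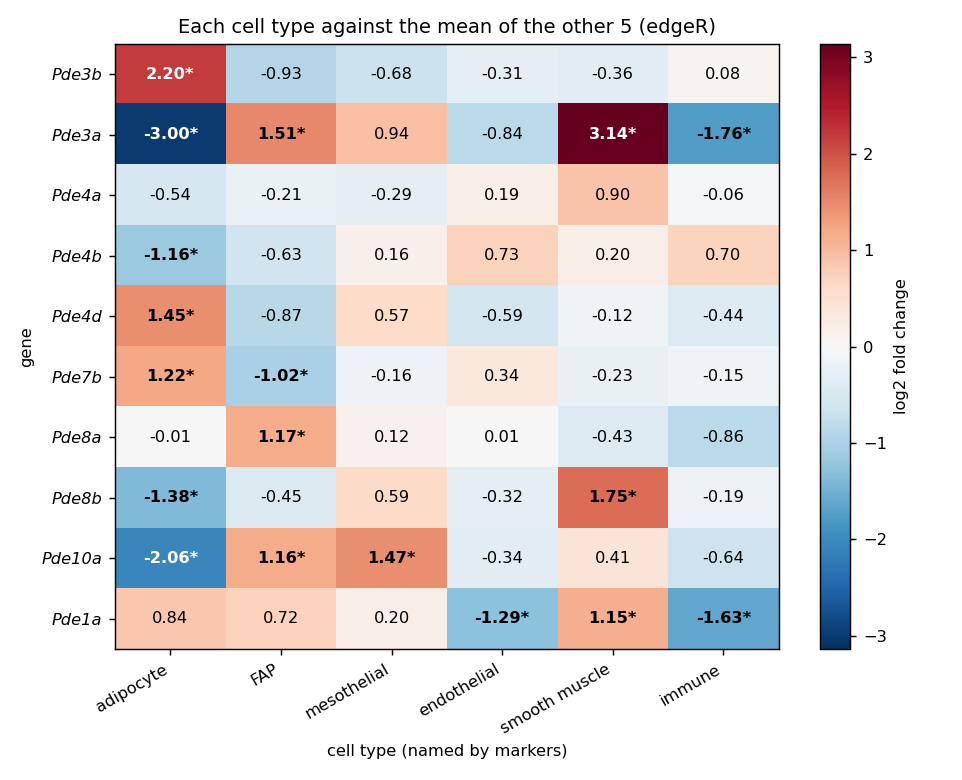
Log2 fold change of each of the 10 genes (rows) in each cell type (columns) against the mean log2 level of the other 5, from edgeR. Calls are in bold and starred. The 3 calls higher in adipocytes stand beside 4 calls lower in the same column, and Pde3a holds both the highest value, 3.14 in smooth muscle nuclei, and the lowest, -3.00 in adipocytes.

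Of the 10 genes, 4 were called lower in adipocytes, Pde3a, Pde4b, Pde8b and Pde10a, where 17.9% of all genes were called lower. Pde4b and Pde8b were over 2 times the length background in 1 type each, and the background rate was lowest in adipocytes. The part of that background in their lower calls was not tested. Pde7b was lower in FAPs (1 of 10, beside 3.20% of all genes), Pde1a in endothelial nuclei (1 of 10, beside 2.13%), and Pde3a and Pde1a in immune nuclei (2 of 10, beside 5.64%). Though not called here, Pde8a in immune nuclei was called lower in 4 of 12 alternatives, down to -1.26. Pde4d in FAPs was called lower in 2 of 12, down to -1.24. None of the 10 was called lower in mesothelial nuclei, beside 2.49% of all genes, or in smooth muscle nuclei, beside 2.29%. At an unadjusted p under 0.05, Pde3b alone was lower in mesothelial nuclei (log2 difference -0.68, adjusted p = 0.0028 from edgeR) and none in smooth muscle nuclei, and DESeq2 called none lower in these types. Pde3b was called lower in mesothelial nuclei in 2 of 12 alternatives, down to -1.71. These removed doublets, or mixed subclusters together with the adipocyte subcluster of satellite repeats. In smooth muscle nuclei Pde3b was called lower without integration, at -1.27. In smooth muscle nuclei its values ranged from -1.27 to 0.48 over the alternatives, so that the direction turned. The median log2 fold change of the 10 genes was -0.33 in FAPs, -0.31 in endothelial, -0.31 in immune, -0.27 in adipocyte, 0.18 in mesothelial and 0.30 in smooth muscle nuclei, beside -0.04, -0.07, 0.05, -0.07, 0.01 and -0.13 for all genes tested. Pde4a was not called in any type. The scale factors of edgeR (TMM) raised log2 fold changes in adipocytes by 0.30 relative to library totals and moved those in smooth muscle nuclei by -0.25.

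**Figure D2:**
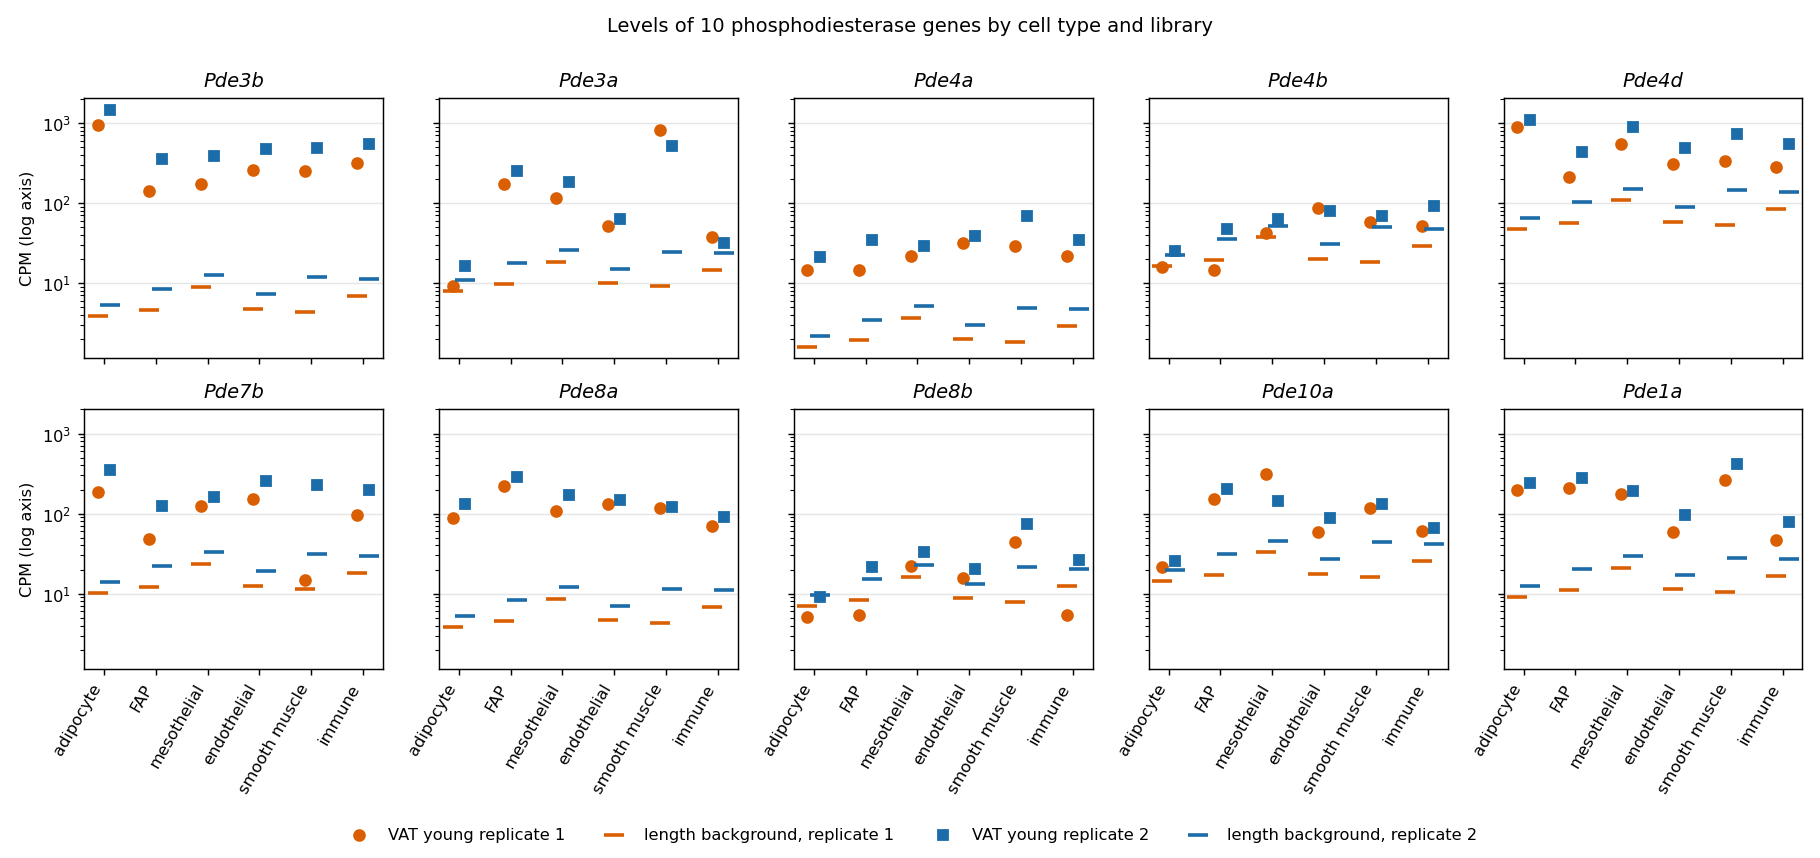
CPM (log axis) of each gene in the 6 cell types, circles for VAT young replicate 1 and squares for replicate 2, with a bar at the level that the length background gives. Pde3b and Pde4d stand well above their bars in all types, while Pde4b and Pde8b lie at or near theirs in adipocytes and FAPs.

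Of the Pde3 family, Pde3b had its highest level in adipocytes and Pde3a in smooth muscle nuclei. Pde3b, the insulin-regulated cAMP phosphodiesterase of fat cells (chr7:114013685-114138486, plus strand, GRCm39, 125 kb, of which 10.3% is exon), was at 949.6 and 1452 CPM in adipocytes. It was at 313 and 552 CPM in immune, 261 and 469 in endothelial, 249 and 492 in smooth muscle, 175 and 388 in mesothelial and 139 and 355 CPM in FAP nuclei. Both adipocyte values lay above every value of the other types, and replicate 2 was the higher library in each type. In CPM, adipocytes stood at 4.18 and 3.22 times the mean of the other types. The log2 fold change was 2.20 (SE 0.14), that is 4.59-fold, with an adjusted p of 3.4e-19 from edgeR. It was 2.65 with doublets removed and 3.32 in a setting added after seeing the data, without the adipocyte subcluster of satellite repeats and the FAP, mesothelial, endothelial and immune subclusters that held markers of another type. Adipocytes were apart from the next type, immune nuclei, by 1.76 on the log2 scale (SE 0.21, adjusted p = 5.1e-10 from edgeR), and no further neighbours in the order were apart. After each nucleus was thinned to 1000 UMIs, 49.2% and 60.4% of adipocyte nuclei held a UMI of Pde3b, against 8.70% and 15.9% of FAP nuclei, and without thinning the shares were 71.2% and 84.4% against 15.02% and 24.6%. Median depths before thinning were 2491.5 and 4317 UMIs in adipocyte nuclei and 1786 and 2081 UMIs in FAP nuclei. At 244 and 272 times the length background, Pde3b in adipocytes was the farthest above it of all 60 pairs.

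The level of Pde3b outside adipocytes was set beside that of 10 genes used as adipocyte markers, some of which, such as Pnpla2 and Pparg, other cells also use. These markers had ratios to their own adipocyte level of 0.151 to 0.412 and 0.218 to 0.461 in FAPs, and Pde3b had ratios of 0.147 and 0.244 there. Over the 5 other types and both libraries, 8 of the 10 ratios of Pde3b lay within the range of these markers and 2 below it. The range was wide in endothelial nuclei of replicate 2, at 0.363 to 2.23, where Adipoq and Pnpla2 were above their adipocyte level. Whether the UMIs of Pde3b in the other types came from adipocytes was not tested. Pde3b was lower in the largest subclusters of FAP and mesothelial nuclei than in each type as a whole, at 63.3 and 111 CPM in the first FAP subcluster (231 and 1138 nuclei) and 68.0 and 97.1 CPM in the first mesothelial subcluster (174 and 1282 nuclei). Subclusters in which all 10 adipocyte markers stood above the rest of their type were found in 4 types. In 3 of these, with mean doublet scores of 0.242 to 0.274, Pde3b was at 609 and 1172 CPM among FAPs, 606 and 1224 CPM among mesothelial and 806 and 1236 CPM among immune nuclei. The other one, with a score of 0.0910, held 150 of the 189 smooth muscle nuclei, so values of smooth muscle come mostly from nuclei with adipocyte markers, and Pde3b was at 265 and 637 CPM there. In the second endothelial subcluster (40 and 201 nuclei), which held smooth muscle markers, the adipocyte markers summed to 5678 and 8362 CPM, and Pde3b was at 288 and 621 CPM, beside 210.1 and 209 CPM in the first. The part of doublets and of free RNA was not tested. In FAPs the log2 difference of Pde3b, -0.93 (adjusted p = 6.1e-05 from edgeR), was under the limit, and it was called lower there in 3 of 12 alternatives.

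**Figure D3:**
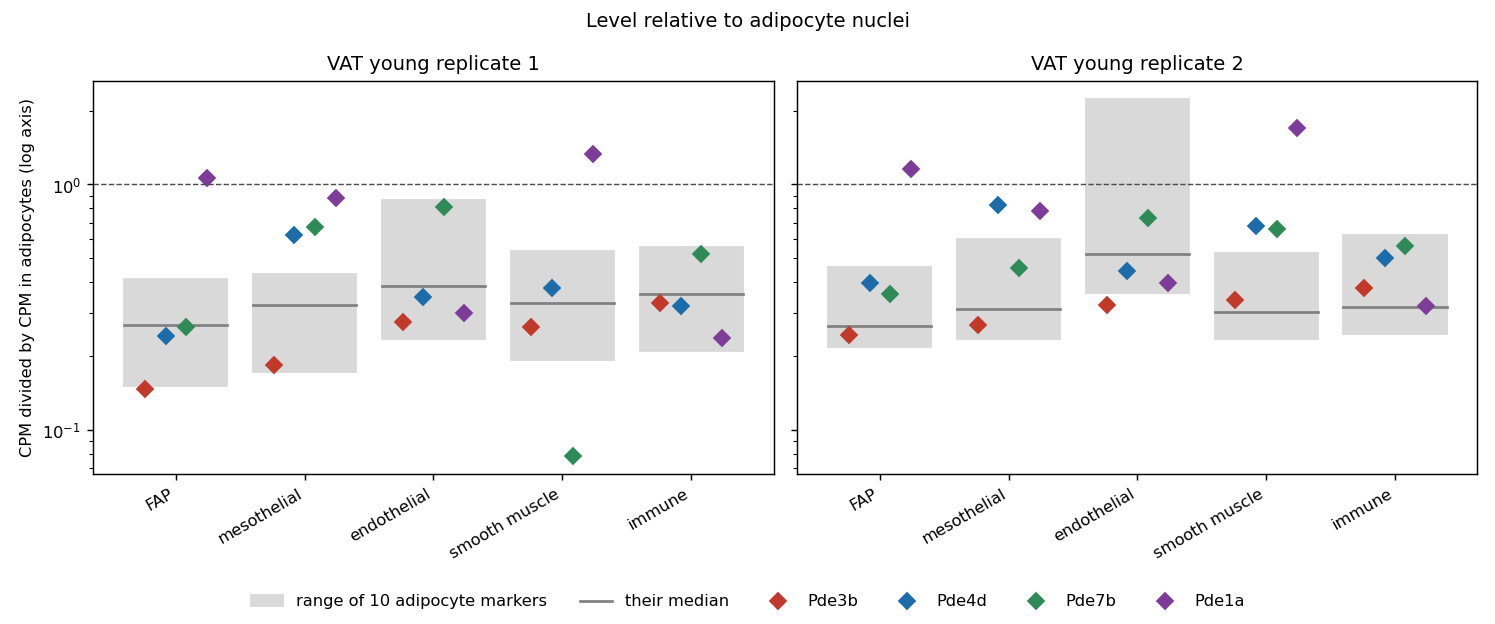
CPM in each other type divided by CPM in adipocytes (log axis), 1 panel per library, for Pde3b, Pde4d, Pde7b and Pde1a, over a grey span from the lowest to the highest ratio of the 10 adipocyte markers. Pde3b lies within or just below the span in every type, while Pde1a in FAP, mesothelial and smooth muscle nuclei and Pde4d in mesothelial nuclei lie above it in both libraries.

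Pde3a, the cGMP-inhibited enzyme of heart, platelets and vascular smooth muscle (chr6:141194888-141453174, plus strand, GRCm39, 258 kb), was lowest in adipocytes, where Pde3b was highest. It was at 821 and 518 CPM in smooth muscle nuclei, 172 and 249 in FAPs, 115 and 184 in mesothelial, 51.4 and 62.8 in endothelial and 37.7 and 31.9 CPM in immune nuclei, and at 9.15 and 16.4 CPM in adipocytes. The order of the types was the same in both libraries. Pde3a was higher in smooth muscle nuclei by 3.14 on the log2 scale (SE 0.20, adjusted p = 1.1e-19 from edgeR) on 56 and 198 UMIs, and in FAPs by 1.51 (SE 0.17, adjusted p = 2.5e-10), and lower in adipocytes, at -3.00 (SE 0.22, adjusted p = 1.7e-17). In CPM, FAPs stood at 0.831 and 1.53 times the mean of the other types, below it in replicate 1. A mitochondrial limit of 5% left smooth muscle, the highest type, untested, so that only 5 types were compared. Under that limit the log2 fold change in FAPs was 2.38 and that in adipocytes -2.34. Without the mixed subclusters and that of satellite repeats, the value in adipocytes was -3.68. Smooth muscle was apart from FAPs (log2 difference 1.36, SE 0.25, adjusted p = 4.6e-05 from edgeR), mesothelial from endothelial nuclei (1.48, SE 0.28, adjusted p = 3.5e-05) and immune nuclei from adipocytes (1.04, SE 0.28, adjusted p = 0.0022). FAP and mesothelial nuclei were not apart (adjusted p = 0.22 from edgeR). In thinned nuclei, 54.2% and 32.7% of smooth muscle nuclei held a UMI of Pde3a, against 1.37% and 2.98% of adipocytes, and without thinning 62.5% and 48.5% against 2.39% and 6.52%, the median depth of smooth muscle nuclei being 1786 and 1944 UMIs. In adipocytes Pde3a was at 1.14 and 1.49 times the length background, within the 2-fold limit in both libraries, but in the subcluster of adipocytes with thermogenic markers it was at 9.66 and 30.1 times, on 5 and 96 UMIs.

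The cAMP-specific Pde4 genes differed from each other. Pde4d (chr13:108586482-110092497, plus strand, GRCm39) is the longest of the 10, at 1506 kb, of which 0.963% is exon, and 16 other annotated genes overlap it. It was at 885 and 1088 CPM in adipocytes, 549.6 and 894 in mesothelial, 337 and 738 in smooth muscle, 284 and 546 in immune, 308 and 482 in endothelial and 214 and 431 CPM in FAP nuclei. Adipocytes were the highest type within each library, although their value in replicate 1 was below that of mesothelial nuclei in replicate 2. The log2 fold change in adipocytes was 1.45 (SE 0.15, adjusted p = 4.4e-12 from edgeR), and adipocytes were apart from mesothelial nuclei by 0.73 (SE 0.21, adjusted p = 0.0037). Per kb of gene, Pde4d was at 0.588 and 0.723 CPM in adipocytes, below Pde3b at 7.61 and 11.6, and 18.9 and 16.9 times the background. In the other types it lay between 3.38 and 6.35 times the background. In mesothelial nuclei its ratio to adipocytes was 0.621 and 0.822, above the 0.173 to 0.431 and 0.235 to 0.603 of the adipocyte markers.

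Pde4b, best known for its part in inflammatory cells (chr4:101944740-102465716, plus strand, GRCm39, 521 kb), was at 87.0 and 79.4 CPM in endothelial, 52.1 and 92.3 in immune, 58.6 and 68.1 in smooth muscle, 42.4 and 63.9 in mesothelial, 14.5 and 46.8 in FAP and 15.98 and 25.4 CPM in adipocyte nuclei. It was lower in adipocytes, at -1.16 on the log2 scale (SE 0.22, adjusted p = 1.1e-05 from edgeR), a call that was lost with a mitochondrial limit of 5% (-0.93) and without the filter on low counts (-0.91), whereas it was -2.09 at a clustering resolution of 0.3 and -2.28 without the mixed subclusters and that of satellite repeats. No neighbours in its order were apart, and the highest type was endothelial in replicate 1 and immune in replicate 2. Only endothelial nuclei were over 2 times the length background in both libraries, at 4.33 and 2.61 times, and immune nuclei were at 1.79 and 1.95 times. In adipocytes Pde4b was at 0.985 and 1.14 times the background. In replicate 2 the subcluster with T and NK cell markers (92 nuclei) held Pde4b at 196 CPM, 4.21 times its own background, beside 101 CPM and 1.57 times in the subcluster with macrophage markers (723 nuclei). In replicate 1 the macrophage subcluster held it at 77.8 CPM, 1.66 times. The subcluster with dendritic cell markers held it at 34.3 and 89.3 CPM, 2.81 and 3.06 times, the former on 4 UMIs.

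Pde4a (chr9:21073005-21124544, plus strand, GRCm39), another cAMP-specific enzyme and the shortest of the 10 genes at 51.5 kb, was not called in any type. It was at 14.4 and 21.1 CPM in adipocytes, 14.5 and 34.3 in FAPs, 22.1 and 28.7 in mesothelial, 31.6 and 39.0 in endothelial, 21.6 and 34.8 in immune and 29.3 and 68.1 CPM in smooth muscle nuclei, the last on 2 and 26 UMIs. The values of adipocytes overlapped with those of FAPs and lay below those of the other 4 types. Of its 15 pairs of types 1 was apart, adipocytes below smooth muscle nuclei (log2 difference -1.20, SE 0.42, adjusted p = 0.033 from edgeR). It was 5.58 to 16.1 times the length background in all types and both libraries, but the background of a gene of this length is extrapolated below the shortest neural gene, Cdh9 of 129 kb, which stood at 23.3 and 28.8 CPM in adipocytes, so the multiple is not read as expression.

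Pde7b, a cAMP-specific phosphodiesterase of high affinity (chr10:20273567-20600886, minus strand, GRCm39, 327 kb), was at 186 and 350.3 CPM in adipocytes, 150.2 and 256 in endothelial, 97.0 and 196 in immune, 126 and 160 in mesothelial, 14.7 and 230.4 in smooth muscle and 48.9 and 126 CPM in FAP nuclei. The smooth muscle values rest on 1 and 88 UMIs and say little. Adipocytes were the highest type in both libraries, and stood 1.22 above the mean of the other 5 types on the log2 scale (SE 0.17, adjusted p = 1.4e-08 from edgeR), and were apart from endothelial nuclei by 0.73 (SE 0.25, adjusted p = 0.018). Scaled by library totals in place of TMM, the fold change in adipocytes was 0.92 and was not called. In FAPs it was lower, at -1.02 (SE 0.22, adjusted p = 2.3e-04 from edgeR), and this was not called without the library as a block (-0.998) or without integration (-0.94). Relative to adipocytes, Pde7b in endothelial nuclei was at 0.807 and 0.730, within the wide range of the adipocyte markers there, 0.236 to 0.865 and 0.363 to 2.23. In replicate 2 the lymphatic endothelial subcluster (31 nuclei) held Pde7b at 575 CPM, on 56 UMIs, beside 209 CPM in the first endothelial subcluster.

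The Pde8 genes encode cAMP-specific enzymes of very high affinity. Pde8a (chr7:80862941-80984284, plus strand, GRCm39, 121 kb) was at 224 and 285 CPM in FAPs, 109 and 169 in mesothelial, 130.4 and 149 in endothelial, 117 and 120.5 in smooth muscle, 87.6 and 131 in adipocyte and 70.1 and 90.5 CPM in immune nuclei. Both FAP values lay above every value of the other types. The log2 fold change in FAPs was 1.17 (SE 0.16, adjusted p = 4.8e-08 from edgeR), and FAPs were apart from mesothelial nuclei by 0.87 (SE 0.21, adjusted p = 0.0021). In FAPs Pde8a was at 49.7 and 34.5 times the length background, beside 29.98 and 41.8 times for Pde3b there.

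Pde8b (chr13:95160559-95386844, minus strand, GRCm39, 226 kb) lay near the length background in most types. It was at 44.0 and 73.3 CPM in smooth muscle nuclei, on 3 and 28 UMIs, at 22.1 and 33.2 in mesothelial nuclei, at 15.8 and 20.2 in endothelial, 5.39 and 26.0 in immune and 5.43 and 21.5 in FAP nuclei, and at 5.12 and 9.05 CPM in adipocytes. The log2 fold change in smooth muscle nuclei was 1.75 (SE 0.41, adjusted p = 0.0022 from edgeR), but smooth muscle was not apart from mesothelial nuclei (adjusted p = 0.23), and without the library as a block the adjusted p was 0.058. Only smooth muscle nuclei were over 2 times the length background in both libraries, at 5.51 and 3.39 times. In adipocytes, where it was called lower (log2 fold change -1.38, SE 0.30, adjusted p = 1.2e-04 from edgeR), it was at 0.726 and 0.935 times the background. With a mitochondrial limit of 5%, and so without smooth muscle in the comparison, the fold change in adipocytes was -0.75 and was not called. It was -2.51 at a clustering resolution of 0.3 and -2.73 without the mixed subclusters and that of satellite repeats.

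Pde10a and Pde1a encode enzymes that cleave both nucleotides. Pde10a, known from striatal neurons (chr17:8744204-9205482, plus strand, GRCm39, 461 kb), was at 314 and 143 CPM in mesothelial, 154 and 202 in FAP, 117 and 134 in smooth muscle, 59.3 and 88.1 in endothelial, 61.1 and 66.7 in immune and 21.4 and 25.7 CPM in adipocyte nuclei. Mesothelial nuclei were higher by 1.47 on the log2 scale (SE 0.20, adjusted p = 1.5e-08 from edgeR) and FAPs by 1.16 (SE 0.19, adjusted p = 3.2e-06), and the 2 types were not apart (adjusted p = 0.66), mesothelial nuclei being the higher in replicate 1 and FAPs in replicate 2. Adipocytes were the lowest type in both libraries (log2 fold change -2.06, SE 0.22, adjusted p = 1.2e-11 from edgeR), at 1.49 and 1.30 times the length background. Their fold change was -2.77 at a clustering resolution of 0.3 and -2.99 without the mixed subclusters and that of satellite repeats. FAPs were at 8.95 and 6.44 times and mesothelial nuclei at 9.51 and 3.09 times. With a mitochondrial limit of 5%, which left 24 of 246 mesothelial nuclei in replicate 1, the fold change in mesothelial nuclei was 0.85 and was not called. The 10 FAP markers summed to 9543 and 6481 CPM in mesothelial and 15455 and 8215 CPM in FAP nuclei, with none of the 10 at 0, and their part in the shared levels of Pde10a and Pde3a was not tested.

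Pde1a, a phosphodiesterase activated by calcium and calmodulin (chr2:79664364-79959802, minus strand, GRCm39, 295 kb), was at 264 and 416 CPM in smooth muscle, 210 and 282 in FAP, 198 and 244 in adipocyte, 175 and 190 in mesothelial, 59.3 and 96.8 in endothelial and 46.7 and 78.0 CPM in immune nuclei. These values formed 2 levels that did not overlap, with 4 types at 175 CPM or more and 2 types at 96.8 CPM or less. Smooth muscle nuclei were higher by 1.15 on the log2 scale (SE 0.20, adjusted p = 2.1e-05 from edgeR). Endothelial and immune nuclei were lower on the same scale, at -1.29 (SE 0.21, adjusted p = 5.0e-06 from edgeR) and -1.63 (SE 0.20, adjusted p = 2.1e-09). Without the mixed subclusters and that of satellite repeats, the value in immune nuclei was -2.23. The smooth muscle level came from a subcluster of 21 and 129 nuclei in which the adipocyte markers summed to 4919 and 5309 CPM, with Pde1a at 341 and 565 CPM, while in the 36 other nuclei of replicate 2 it was at 19.2 CPM on 2 UMIs, 1.33 times the background. The part of these markers in the call was not tested. Mesothelial and endothelial nuclei were apart by 1.24 (SE 0.25, adjusted p = 1.2e-04 from edgeR). Smooth muscle was not apart from adipocytes (adjusted p = 0.49), whose log2 fold change of 0.84 (SE 0.15) was under the limit of 1, and it was called in 5 of 12 alternatives, at up to 1.30. In adipocytes Pde1a was at 21.5 and 19.3 times the length background, and its ratios in FAP, mesothelial and smooth muscle nuclei lay above those of the adipocyte markers in both libraries.

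Over all 10 genes, 75 of 150 pairs of cell types were apart at an adjusted p under 0.05 in edgeR, beside 21.5% of all genes and pairs. Of the 50 pairs of neighbours in the orders, 9 were apart, beside 6.71% of all neighbours over all genes. For 5 genes the first type was apart from the second, beside 19.6% of all genes, adipocytes for Pde3b, Pde4d and Pde7b, FAPs for Pde8a and smooth muscle for Pde3a. Without the library as a block this held for Pde3b and Pde3a only, with library totals in place of TMM for Pde3b, Pde3a and Pde8a, and with a mitochondrial limit of 5%, under which smooth muscle was too small to be tested, for Pde3b and Pde4d. Pde7b was also lost with DESeq2 and with the phosphodiesterases kept among the variable genes, and so in 5 of 12 alternatives.

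**Figure D4:**
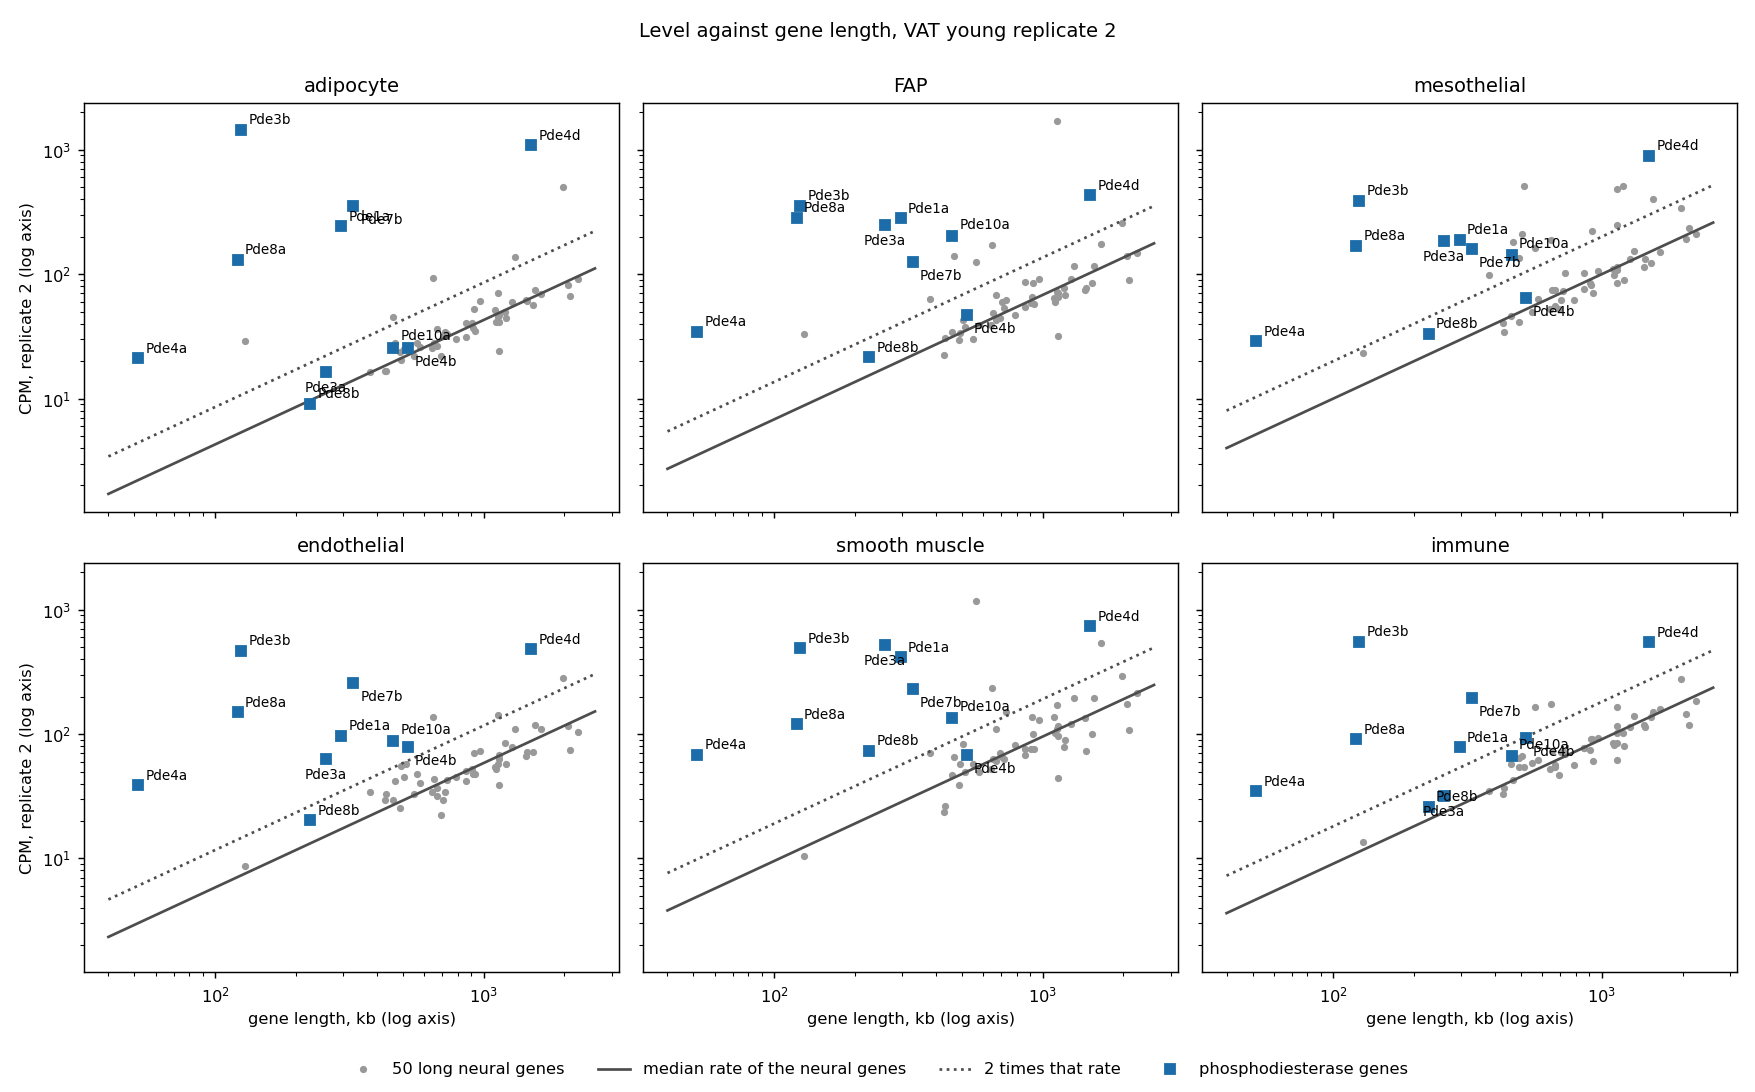
CPM in VAT young replicate 2 against gene length in kb (both log axes), 1 panel per cell type, with the 50 long neural genes as grey points, their median rate as a line and 2 times that rate as a dotted line. In adipocytes Pde3a, Pde4b, Pde8b and Pde10a lie below the dotted line, and Pde3b, Pde4d, Pde7b, Pde8a, Pde1a and Pde4a lie above the dotted line.

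Within adipocytes the genes were read in 3 subclusters. The first, of 1625 and 4752 nuclei, held Pde3b at 1002 and 1491 CPM and Pde4d at 895 and 1093 CPM, and its background rate was 0.0149 and 0.0184 CPM per kb. The second, of 306 and 1989 nuclei with a median of 1700 UMIs, was led by Gm10718, Gm10717 and Gm10801, gene models in satellite repeats. It held 2295 of the 8857 adipocyte nuclei and 6 of the 10 adipocyte markers, but set against the other adipocyte subclusters it held 6 FAP markers beside those of other types and was given no name. At a clustering resolution of 0.3 a cluster of 2712 nuclei led by the same kind of genes had no name and was not counted as adipocytes. The background rate of the second subcluster was 0.221 and 0.227 CPM per kb. Pde4b was at 108 and 123 CPM in the second subcluster and at 7.86 and 12.2 CPM in the first, yet at 0.937 and 1.04 times the background in the second and 1.01 and 1.27 times in the first. Pde10a, Pde3a and Pde8b followed the same course, at 0.681 to 1.17 times the background in the second subcluster. Pde4d was at 39.95 and 39.45 times the background in the first and at 1.97 and 2.71 times in the second, although its CPM there was 654 and 925.

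The third subcluster, of 39 and 146 nuclei, held all 7 markers of thermogenic adipocytes, fat cells that burn fuel for heat, among them Ucp1 and Cidea as leading genes. Pde8a was at 214 and 336 CPM there and at 85.8 and 127 CPM in the first subcluster. Pde4a, on 8 and 79 UMIs, was at 41.7 and 68.3 CPM, and in the first subcluster at 13.97 and 18.3 CPM. Levels of Pde4d reached 1242 and 1547 CPM and those of Pde7b 297 and 539 CPM, both above the first subcluster within each library. Pde3a was at 26.1 and 83.0 CPM there and at 4.54 and 6.95 CPM in the first subcluster, while Pde3b was at 934 CPM in replicate 1, below the first subcluster, and 2670 CPM in replicate 2, above it. Pde1a was at 172 and 219 CPM, below the first subcluster in both libraries. These subclusters were drawn from the same nuclei, and no test was made between them.

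**Figure D5:**
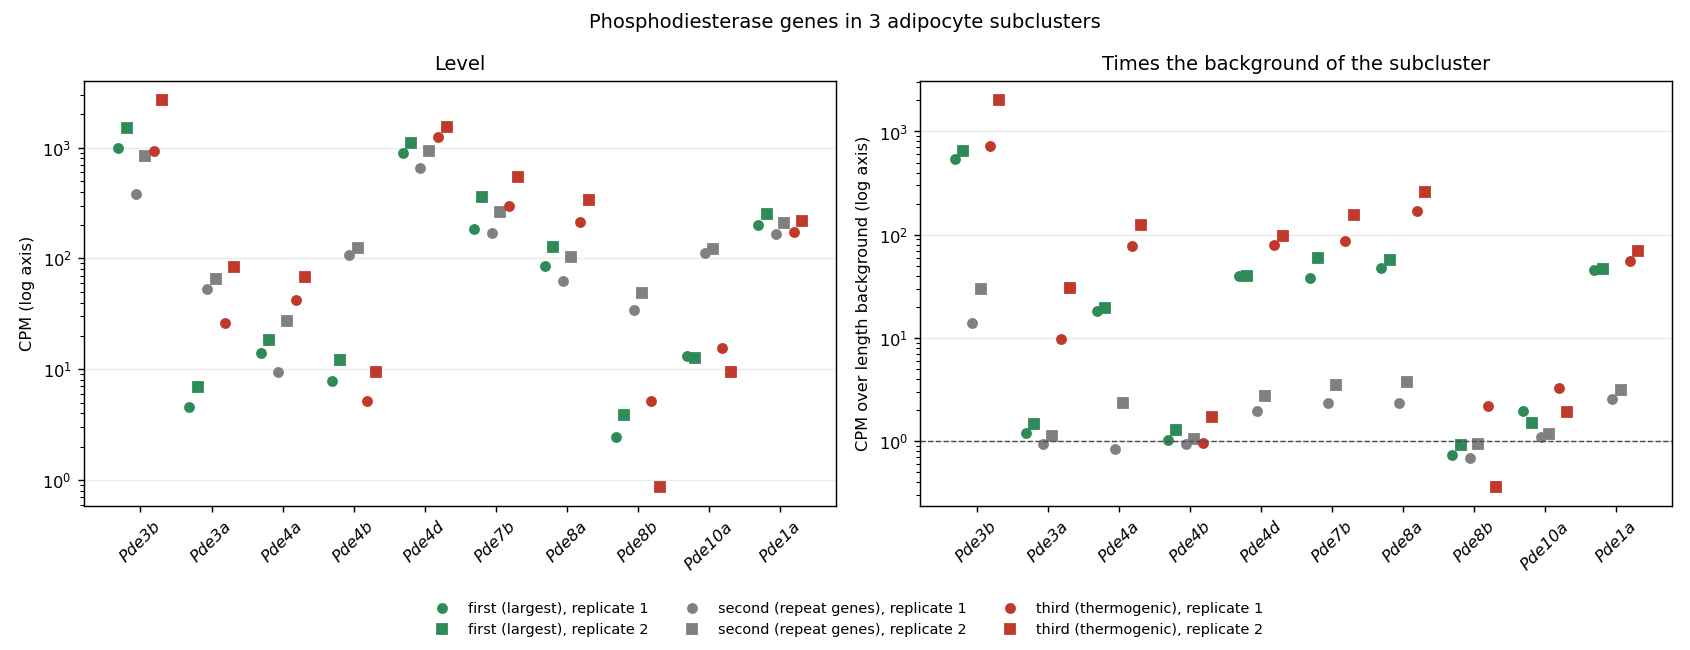
CPM (left) and CPM over the length background of the subcluster (right), both on log axes, for the 10 genes in the 3 adipocyte subclusters, circles for VAT young replicate 1 and squares for replicate 2. Pde4b, Pde8b and Pde10a are higher in CPM in the second subcluster than in the first but lie under 2 times the background in both, and Pde8a and Pde4a are highest in the third.

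In smooth muscle nuclei of replicate 2, Pde1a, Pde3a and Pde4d stood at different levels in subclusters of 129 and 36 nuclei, with no test made between them. The first held 9 of the 10 smooth muscle markers and, set against the second, all 10 adipocyte markers, which summed to 5309 CPM there and to 990 CPM in the second, and the second held 5 of the 10 smooth muscle markers. Pde1a was at 565 CPM in the first and 19.2 CPM, on 2 UMIs, in the second, and Pde3a at 615 and 259 CPM. The level of Pde4d was instead higher in the second, at 1269 CPM, than in the first, at 539.9 CPM. Replicate 1 had 3 nuclei in the second subcluster, so this rests on 1 library. In mesothelial nuclei the second subcluster (40 and 653 nuclei), which stayed unnamed, had a background rate of 0.316 and 0.263 CPM per kb, and Pde4d was at 884 and 811 CPM there, 1.86 and 2.05 times the background. In the first mesothelial subcluster Pde4d was at 515 and 872 CPM, 7.73 and 9.43 times the background.

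The other 14 phosphodiesterase genes of the mouse on the list were less often measured. In all, 10 of the 14 were tested, with 4 calls higher and 5 lower over the 60 pairs of gene and type, beside 7.77% higher and 5.61% lower of all genes over the 6 types. Pde5a, the cGMP-specific enzyme that sildenafil inhibits, was at 572 and 524 CPM in smooth muscle nuclei and at most 63.2 and 37.5 CPM elsewhere (log2 fold change 4.37, SE 0.23, adjusted p = 4.8e-23 from edgeR). Pde7a, cAMP-specific like Pde7b, was at 475 and 607 CPM in adipocytes and at most 186 and 259.8 CPM elsewhere (1.81, SE 0.14, adjusted p = 5.0e-16, and 2.64 without the mixed subclusters and that of satellite repeats). Pde9a, specific for cGMP, was higher in endothelial nuclei at 47.4 and 29.6 CPM (1.81, SE 0.40, adjusted p = 5.2e-04), while other types reached 29.3 and 23.6 CPM. Pde1b, activated by calcium and calmodulin, was higher in immune nuclei at 19.8 and 13.9 CPM on 11 and 38 UMIs (1.46, SE 0.46, adjusted p = 0.014 from edgeR), while another type reached 15.7 CPM in replicate 2, and this is a call that was lost without the library as a block. Pde2a, Pde6c, Pde6g and Pde6h were not tested, and Pde2a was listed at 0 UMIs in all 6 types, which may come from the annotation used in counting, so that nothing is read from it.

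The genes that make and read cAMP, 25 on the list and all tested, had 14 calls higher and 12 lower over 150 pairs, beside the same 7.77% and 5.61%. In adipocytes 3 of 25 were higher, Prkar2b, Adcy10 and Gnai1, and 7 were lower, beside 9.10% and 17.9% of all genes, with a median log2 fold change of -0.35 beside -0.07 for all genes. In smooth muscle nuclei 5 of 25 were higher, Prkar1b, Adcy5, Adcy6, Adcy2 and Rapgef4, beside 4.43% of all genes, with a median of 0.31 beside -0.13. In endothelial nuclei 3 were higher and 3 lower, beside 6.22% and 2.13%, in immune nuclei 2 and 2, beside 10.6% and 5.64%, and in FAPs 1 was higher, beside 7.18%. By edgeR none of the 25 was called in mesothelial nuclei, where 9.06% of all genes were higher and 2.49% lower. Among the calls higher, the 4 largest included Adcy7, an adenylyl cyclase, in immune nuclei (113 and 154 CPM, log2 fold change 3.29, SE 0.22). The others were the adenylyl cyclase Adcy4 in endothelial nuclei (90.9 and 49.1 CPM, 2.90, SE 0.34), Rapgef3, a cAMP-activated exchange factor, in endothelial nuclei (130.4 and 108 CPM, 2.39, SE 0.26) and the adenylyl cyclase Adcy2 in FAPs (143 and 139 CPM, 2.12, SE 0.20).

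The 8 genes that make and read cGMP, all tested, had 13 calls higher and 13 lower over 48 pairs, beside the same shares of all genes. Of the 8, 3 were higher in endothelial nuclei (Gucy1b1, Npr1 and Npr2), 3 in mesothelial nuclei (Gucy1a1, Prkg2 and Npr1) and 2 in FAPs (Gucy1a2 and Npr1), beside 6.22%, 9.06% and 7.18% of all genes. Gucy1b1 was lower in mesothelial nuclei and Gucy1a1 in FAPs, beside 2.49% and 3.20%, and 5 were lower in immune nuclei, beside 5.64%. In all, 4 were higher in smooth muscle nuclei, beside 4.43% of all genes, with a median log2 fold change of 2.26, beside -0.13 for all genes. In adipocytes 6 of the 8 were lower, beside 17.9% of all genes, and 1, the natriuretic peptide clearance receptor Npr3, was higher, with a median of -2.61 beside -0.07. Prkg1, the cGMP-dependent protein kinase, was at 3796 and 3593 CPM in smooth muscle nuclei and at most 423 and 659.8 CPM elsewhere (log2 fold change 3.74, SE 0.15, adjusted p = 2.6e-28 from edgeR). The subunits of soluble guanylyl cyclase Gucy1b1 (396 and 175 CPM, 4.72, SE 0.32), Gucy1a2 (1744 and 1286 CPM, 4.27, SE 0.16) and Gucy1a1 (264 and 257 CPM, 3.65, SE 0.26) were higher there too.

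Of the 8 partners of phosphodiesterases, 6 calls higher and 6 lower were made over 48 pairs, beside 7.77% and 5.61% of all genes over the 6 types. Abhd15, which binds and stabilises the Pde3b enzyme, was at 165 and 118 CPM in adipocytes and at most 73.3 and 59.9 CPM elsewhere (log2 fold change 1.82, SE 0.17, adjusted p = 1.5e-13 from edgeR, and 2.67 without the mixed subclusters and that of satellite repeats). Pik3r6, a subunit of phosphoinositide 3-kinase gamma that binds Pde3b, was called higher in immune nuclei, at 57.5 and 89.8 CPM (2.89, SE 0.26), and in endothelial nuclei too, and reached 51.4 and 60.7 CPM outside immune nuclei. Akap6, an anchoring protein that binds Pde4d, was higher in smooth muscle nuclei at 249 and 181 CPM (2.50, SE 0.28), and Pde4dip, which binds Pde4d as well, in mesothelial nuclei at 166 and 139.7 CPM (1.23, SE 0.20).

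Genes with the pattern most like a phosphodiesterase were named by Pearson's r of log2(CPM + 1) over the 12 sums of 6 types and 2 libraries, among 12760 named genes, as a description, since the sums share 2 libraries and their depth. Vps13c (r = 0.987) and Pfkfb1 (0.983) came closest to Pde3b, Pfkfb1 being at 311 and 499.9 CPM in adipocytes and at most 115 and 191 CPM elsewhere. Cyp7b1 (0.965) and Arhgef25 (0.964) came closest to Pde3a, Rbm28 (0.969) and Ints4 (0.928) to Pde4d, Sf3b1 (0.962) and Disc1 (0.943) to Pde4b, and Slc15a5 (0.975) and Helz (0.971) to Pde7b. Pcsk5 (0.912) and Grb10 (0.898) came closest to Pde8a, Pced1b (0.933) and Usp7 (0.926) to Pde8b, Pik3ip1 (0.941) and Map1a (0.939) to Pde10a, and Pard3 (0.976) and Sox5 (0.962) to Pde1a. Usp7 ranged only from 88.7 to 141 CPM over the 12 sums, so a high r here says nothing of the size of a difference.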

How the data were processed

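Unique molecular identifiers (UMIs) of nuclei of young visceral fat were analysed from 2 libraries, each of 1 mouse. The authors aligned reads to GRCm39 with CeleScope, and the deposited matrices hold counts, whole UMIs of 56980 genes per called nucleus, without normalization. The version of the tool and the annotation are not given in the sources used here, nor whether strand was used in counting, so reads of a gene and of overlapping genes cannot be told apart. Deposited barcode counts were used only to check totals, and saturation tables were not used.

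Nuclei were kept by the limits that the study states, which kept more nuclei of each library here than the paper reports. The 1000 most variable genes, without the phosphodiesterases and listed pathway genes, gave 30 principal components, corrected by Harmony written in numpy 2.4.6. Leiden clusters (leidenalg 0.10.2, resolution 0.1, 20 neighbours, seed 1) were named where at least 3 markers and a share of 0.5 of a type's list stood at least 1 higher on the log2 scale and were detected in 5% of nuclei, with a margin of 0.2 over other types, a rule set after the clusters had been seen. The genes and lists were chosen with earlier results of these data known. Doublets were not removed in the main values, and an alternative removed the 6% of nuclei of highest Scrublet score (scanpy 1.11.5).

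UMIs were summed per library and type, with at least 20 nuclei in each, and tested in edgeR 4.0.16 under R 4.3.3 (TMM, filterByExpr, quasi-likelihood F test, Benjamini-Hochberg adjustment over 14209 genes). The library was a block because same-numbered sums come from 1 mouse. As a check of the pairing, the library difference of 1 type was correlated with that of another across 3116 genes, which are not independent, and r lay between 0.344 and 0.774 (median 0.474) in 15 pairs of types. DESeq2 1.42.0 was an alternative. Counts were also simulated, with the same share of UMIs for a gene in all sums apart from planted changes, a fixed spread and no library difference. The real sums differ between types and libraries, so recovery in them can be different. On these simulated data of 13177 genes, the adipocyte comparison recovered 50 of 50 genes at a log2 fold of 2 and 43 of 44 at -2. It called 29 of 46 at 1 and 13 of 49 at -1. These counts needed only an adjusted p under 0.05, with no limit on the size of the difference. Changes near 1 can be missed. Lengths and positions came from GENCODE vM39. All members were named. From each list the up to 4 genes of largest fold change called higher in a type, and for each phosphodiesterase called in a type the 2 genes of highest r, were also named. Sums in the smallest type, smooth muscle, held 68229 and 381888 UMIs, so 1 UMI there was 14.7 CPM in replicate 1.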

Additional observations from a re-analysis of the deposited data

How the results depend on the processing

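Where a gene was called in a type, its fold change there kept its direction in each alternative that tested it. There were 12 alternatives with a test (clustering, filters, scaling, model). Of the 18 calls of phosphodiesterases, 12 held in each alternative that tested them. Direction turned for Pde3b in smooth muscle nuclei, where it was not called in the reported fit. Calls higher ranged from 9 to 13 over the alternatives with a test, 9 without the replicate block and with library totals in place of TMM, and 13 with FAP, mesothelial, endothelial and immune subclusters that held markers of another type, and the adipocyte subcluster of satellite repeats, left out, a choice made after seeing the data. Smooth muscle was kept whole there. That last setting moved fold changes in adipocytes away from 0, to 3.32 for Pde3b, 2.64 for Pde7a, 2.67 for Abhd15, -3.68 for Pde3a, -2.28 for Pde4b, -2.73 for Pde8b and -2.99 for Pde10a (log2), and that of Pde1a in immune nuclei to -2.23. A resolution of 0.3 gave -2.09 for Pde4b, -2.51 for Pde8b and -2.77 for Pde10a in adipocytes. A mitochondrial limit of 5%, with smooth muscle, the highest type of Pde3a, untested, gave -2.34 for Pde3a in adipocytes and 2.38 in FAPs. That limit left 24 of 246 mesothelial and 109 of 253 FAP nuclei in replicate 1. Leaving out replicate 1 or 2, values 2 times the mean CPM of the other types or more, with no test, numbered 7 and 8. Pde3b in adipocytes, Pde3a and Pde8b in smooth muscle and Pde8a in FAPs reached this in both libraries. Pde4d and Pde7b in adipocytes and Pde10a in mesothelial nuclei did so in replicate 1 only. Pde10a in FAPs and Pde1a in smooth muscle did so in replicate 2 only, and Pde3a in FAPs in neither. Pde4b in endothelial nuclei and Pde4a in smooth muscle, not called, were also counted. Genes with 1 highest type, 5 in the reported fit, were 2 without the replicate block, 2 with a mitochondrial limit of 5%, and 3 with library totals in place of TMM factors, the last added after seeing the data. Causes were not tested, except that the limit of 5% removed smooth muscle from the test. Leaving out a library gave no value for this count, since no test is left. Pairs over the length background, 45, were 28 when length was that of exons, and 37 to 48 otherwise, 37 of 50 pairs with the limit of 5%, and 46 and 48 without replicates 1 and 2. No subcluster had fewer than 3 markers of its type, so that alternative changed nothing. Depth limits smooth muscle of replicate 1 most, with 24 nuclei.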
